A study of Mus musculus with 27 samples.

Results

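Sparc, Lama1, Lamb1, Lamc1, Col4a1, Col4a2 and Nid1 encode proteins of the basement membrane and are known as genes that primitive endoderm expresses strongly. Their DNA methylation was read from windows overlapping their gene bodies on GRCm38 or the 5 kb on either side, which gave 205 of the 453239 nuclear windows in the table. Sparc had 9 windows, Lama1 40, Lamb1 24, Lamc1 37, Col4a1 38, Col4a2 46 and Nid1 17, and the neighbours Col4a1 and Col4a2 shared 6 of theirs. No library lacked a value in any of the 205. The cells were embryonic stem cells and epiblast-like cells, not primitive endoderm, and methylation percentages give no expression by which the name of the gene group could be checked.

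A basement membrane is a thin sheet of matrix on which epithelial cells rest. Laminin trimers, each of an alpha, a beta and a gamma chain, assemble at the cell surface, a network of type IV collagen joins them, and nidogen binds both. In the early mouse embryo, primitive endoderm lays down the basement membrane on which the epiblast becomes a polarised epithelium. CpG methylation is set by the DNMT enzymes and oxidised by the TET enzymes. It is low in stem cells kept in 2i medium and rises as they leave the naive state.

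Whole-genome bisulfite sequencing covered 3 mouse lines on D0, D1 and D2, with 3 libraries for each line and day. TET_KO lacks Tet1, Tet2 and Tet3, and TET_WT is the line it was made from. DNMT_WT, also wild type, is the parent of a knockout of Dnmt1, Dnmt3a and Dnmt3b that was not analysed here. On D0 all lines were embryonic stem cells in 2i and Lif, and on D1 and D2 they were epiblast-like cells, a culture model of the early postimplantation epiblast. The labels do not say how many clones a line stands for, nor that replicates were separate cultures, so p-values measure the spread between libraries, which may be technical. Line and culture history cannot be told apart between TET_WT and DNMT_WT. The Tet deletions were not checked, since the table holds methylation percentages only.

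A window is named as holding 100 CpGs, so a short window is rich in CpGs. At the CpG density of the 520 promoters that lie wholly inside a window of at most 500 bp, such a window would hold a median of 48.7 CpG dinucleotides, and the sources used here do not say whether 100 counts the cytosines of each strand. The windows of the 7 genes had a median length of 3468 bp, against 5050 bp for all nuclear windows. Each value is the percentage of CpGs read as methylated, which pools 5-methylcytosine and 5-hydroxymethylcytosine. It also averages over cells, so a change in every cell and a change in the mix of cells cannot be told apart. The table holds no read counts, so the depth is unknown and counting error cannot be given. A gene value is the mean of its windows, and it is set beside the same value for 21488 protein-coding genes.

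The whole genome moved between groups. The mean over all tested windows was 25.5%, 33.3% and 52.5% in TET_WT on D0, D1 and D2, 51.7%, 59.2% and 70.8% in TET_KO, and 3.20%, 13.6% and 49.6% in DNMT_WT. Replicate 2 of TET_WT was the lowest of its group on D1, with 31.3% where the others had 34.2% and 34.3%. On D2 it was the highest, with 55.4% where the others had 50.5% and 51.6%. The genes followed it, so results on those days are also given without it where they change. Windows were also compared relative to the median window of their library, which takes the shift of the genome out of a difference.

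The gene starts divided the group by CpG content. The RefSeq promoter table (GRCm38.p6) held starts for 5 of the 7 genes, all but Lama1 and Lamc1. In the 300 bases around the start, Sparc had 4 CpGs, Lamb1 18, Nid1 20, Col4a2 33 and Col4a1 37, against a median of 7 over 31773 promoters. The 250 bases before the starts of Sparc and Nid1 are shown because they stand for the CpG-poor and the CpG-rich kind, and because their windows behaved differently. Both are written 5′ to 3′ on the strand of the gene, with every CpG in capitals. Sparc lies on the minus strand at chr11:55420081-55420330 and Nid1 on the plus strand at chr13:13437352-13437601.
Sparc: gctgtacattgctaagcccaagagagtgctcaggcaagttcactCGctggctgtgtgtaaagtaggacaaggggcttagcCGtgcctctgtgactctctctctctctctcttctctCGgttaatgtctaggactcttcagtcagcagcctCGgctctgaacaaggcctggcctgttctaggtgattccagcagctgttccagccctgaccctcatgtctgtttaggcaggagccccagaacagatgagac
Nid1: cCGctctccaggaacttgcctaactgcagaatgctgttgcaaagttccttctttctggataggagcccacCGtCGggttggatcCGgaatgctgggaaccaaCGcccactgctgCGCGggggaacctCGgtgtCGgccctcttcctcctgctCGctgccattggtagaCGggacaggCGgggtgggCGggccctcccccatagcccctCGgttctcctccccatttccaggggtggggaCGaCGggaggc
The Sparc stretch holds 4 CpGs and the Nid1 stretch 16.

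Nid1, which encodes the nidogen that links laminin to collagen, starts in a window of 753 bp (chr13:13437270-13438022) whose group means lay between 0.0597% and 1.31% over all 9 groups. The Sparc start lies in a window of 3011 bp (chr11:55419618-55422628). In TET_WT that window stood at 9.59%, 4.70% and 5.43% on D0 and at 30.9%, 45.9% and 25.7% on D2. Replicate 2 was the highest on D2, and no D2 library overlapped D0. In TET_KO the same window was already at 31.3% on D0 and reached 56.7% on D2. The rise from D1 to D2 in TET_WT was 23.96 ± 2.97 points (SE, n = 3 against 3; limma, Benjamini-Hochberg adjusted p = 1.65e-08), and TET_KO was higher than TET_WT on D0 by 24.7 ± 2.97 points (adjusted p = 6.67e-09).

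Among 10727 promoters within 2 CpGs of the Sparc count, the start window had a median of 54.9% in TET_WT on D2 and 54.01% in TET_KO on D0. Sparc sat at their percentiles 14.5 and 10.2 of methylation. The same 2 percentiles, each among promoters within 2 CpGs of its own count, were 4.97 and 3.73 for Nid1, 35.1 and 34.9 for Lamb1, 41.8 and 19.2 for Col4a1 and 37.2 and 15.5 for Col4a2, so all 5 starts lay below their medians. Col4a1 and Col4a2 start in the same window, at 0.276% ± 0.340 (SD, n = 3) in TET_WT on D2, against medians of 0.379% and 0.476%. In TET_KO on D2 it had 0.603%, against 0.606% and 0.704%. These gaps are small and near 0%. The window next to the Sparc start inside the gene (chr11:55416450-55419617) was the lowest of Sparc, at 0.533% in TET_WT on D0, 15.3% on D2 and 20.2% in TET_KO on D2.

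The other starts resembled Nid1. Lamb1, the laminin beta chain, starts in a window of 993 bp (chr12:31264683-31265675) with group means from 0.0833% to 4.05%. Col4a1 and Col4a2, the chains of the common type IV collagen trimer, start head to head in 1 window of 466 bp (chr8:11312391-11312856), with group means from 0.0496% to 0.603%. Lama1, the laminin alpha chain, and Lamc1, the gamma chain, had no start in the promoter table. Each held a window under 1 kb at one end, of 745 bp at the low-coordinate end of Lama1 (chr17:67697358-67698102, 0.102% to 4.93%) and of 356 bp at the high-coordinate end of Lamc1 (chr1:153332413-153332768, 0% to 0.317%). None of the 8 windows under 1 kb passed 4.93% in the mean of any group, with or without Tet. Over all 16219 windows under 1 kb the group medians lay between 0.222% and 0.75%, so such levels are usual for windows of this length.

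Sequence motifs were searched on both strands of the 300 bases around the 5 starts. GGGCGG, the core of the GC box, was found in Lamb1, Col4a1, Col4a2 and Nid1 and in 35.6% of all promoters, and CCAAT in the same 4 genes and in 37.5% of all. None of the 5 held the GATA motif, searched as NGATAN with A or T in front and A or G at the end, which 29.8% of all promoters held. Sparc held none of the motifs searched.

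**Figure D1:**
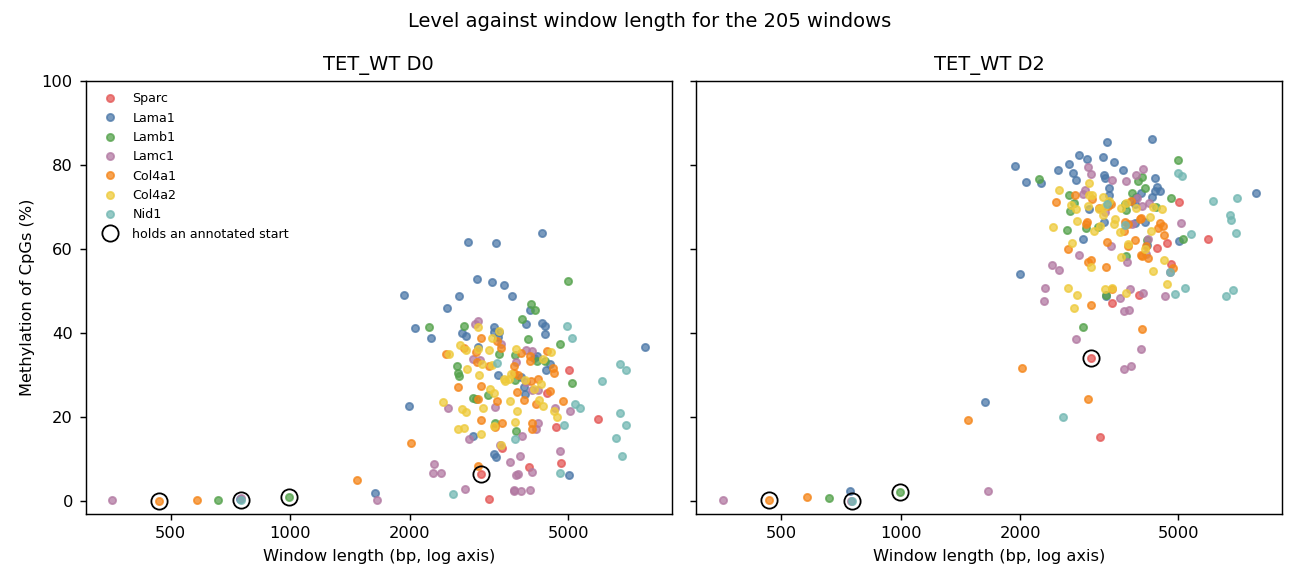
Methylation of each of the 205 windows (y axis, percent of CpGs, mean of 3 libraries) against its length (x axis, base pairs, log axis) in TET_WT on D0 and D2, coloured by gene, with rings on windows that hold a start in the promoter table. Windows under 1 kb stay near 0 on both days, and the ringed Sparc window is the only start over 1 kb and rises to 34.2%.

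Lama1 was the most methylated of the 7 genes in all 9 groups. In TET_WT it stood at 35.3%, 36.7% and 37.2% on D0, 47.9%, 44.9% and 48.6% on D1, and 69.9%, 72.9% and 67.9% on D2. TET_KO gave 63.4%, 62.3% and 64.4% on D0, 71.7%, 71.6% and 73.03% on D1, and 80.5%, 81.01% and 78.9% on D2. DNMT_WT gave 7.40%, 8.09% and 7.98% on D0, 27.4%, 27.02% and 27.05% on D1, and 68.3%, 67.5% and 67.6% on D2. These levels placed Lama1 between the percentiles 95.3 and 99.6 of all genes. On D2 the libraries of the wild-type lines overlapped, and TET_KO lay above both.

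Lamb1 was next in every group, at the percentiles 88.3 to 96.1. TET_WT libraries were at 29.96%, 32.00% and 31.1% on D0, 42.5%, 38.7% and 42.9% on D1, and 62.4%, 64.1% and 60.6% on D2. Those of TET_KO were at 58.7%, 58.8% and 60.97% on D0, 67.00%, 67.1% and 68.4% on D1, and 77.7%, 77.4% and 76.1% on D2. In DNMT_WT the values were 4.43%, 4.87% and 4.53% on D0, 22.02%, 22.6% and 23.04% on D1, and 62.8%, 62.4% and 64.4% on D2. The alpha and beta chain genes were thus both highly methylated for genes of this genome, in each line every library lay above those of the day before, and their ranges on D2 still did not overlap in any line.

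Lamc1 lay well below its laminin partners. Its TET_WT libraries gave 16.4%, 17.2% and 17.7% on D0, 27.8%, 23.6% and 27.04% on D1, and 53.6%, 58.2% and 51.9% on D2. Its TET_KO libraries gave 50.3%, 49.3% and 51.8% on D0, 57.2%, 57.1% and 57.9% on D1, and 71.2%, 71.2% and 69.8% on D2. Its DNMT_WT libraries gave 3.04%, 3.29% and 3.11% on D0, 17.7%, 18.99% and 18.8% on D1, and 58.7%, 57.8% and 59.6% on D2. In naive TET_WT it stood at percentile 29.5 of all genes, on D2 at percentile 69.5, and in DNMT_WT on D2 at percentile 85.8.

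The collagen pair had nearly the same levels. Col4a1 was at 25.3%, 25.9% and 26.3% on D0, 34.3%, 31.4% and 34.5% on D1, and 55.8%, 59.4% and 53.9% on D2 in TET_WT. For Col4a2 the TET_WT values were 25.1%, 25.9% and 25.3% on D0, 35.1%, 31.9% and 34.9% on D1, and 58.8%, 61.9% and 56.9% on D2. In TET_WT their library ranges overlapped on every day, and they share 6 windows, so the likeness is partly built in. In TET_KO, Col4a1 went from 55.3% ± 1.19 (SD, n = 3) on D0 to 73.9% ± 1.25 on D2, and Col4a2 from 56.1% ± 1.03 to 75.7% ± 1.22. In DNMT_WT they parted on D1, at 11.5%, 11.5% and 11.8% for Col4a1 and 14.5%, 14.2% and 14.5% for Col4a2. Col4a1 was then the lowest of the 7 genes. The pair was apart on D2 too, at 54.95%, 53.9% and 55.4% against 59.03%, 57.7% and 58.4%. In TET_KO their ranges were separate on D1 only, with a highest value of 64.45% for Col4a1 and a lowest of 64.51% for Col4a2.

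Nid1 lay in the middle. TET_WT gave 20.4%, 22.00% and 20.8% on D0, 33.2%, 29.5% and 35.7% on D1, and 57.1%, 59.4% and 55.1% on D2. Without Tet it was at 51.4%, 49.5% and 51.4% on D0, 57.8%, 57.9% and 58.3% on D1, and 68.4%, 69.5% and 67.2% on D2. It stood at percentile 80.2 of all genes in DNMT_WT on D1 but at percentile 58.3 in TET_KO on D2, where only Sparc was lower.

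Sparc, a secreted glycoprotein that binds collagen, was the least methylated member in 8 of the 9 groups. In TET_WT it stood at 15.3%, 14.5% and 13.9% on D0, 23.1%, 20.1% and 24.8% on D1, and 49.5%, 54.97% and 48.1% on D2. In TET_KO it stood at 43.4%, 43.1% and 46.1% on D0, 50.2%, 51.98% and 51.2% on D1, and 66.4%, 66.7% and 65.8% on D2. In DNMT_WT it stood at 2.15%, 2.17% and 1.66% on D0, 12.5%, 13.6% and 15.3% on D1, and 49.4%, 49.99% and 50.4% on D2. Its distance to Lama1 in the mean of TET_WT was 14.6% against 36.4% on D0 and 50.9% against 70.2% on D2. Beside all genes it stood at percentile 19.5 in naive TET_WT and at percentile 57.9 on D2.

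Neighbours in the order of levels were not always separate. In naive TET_WT every step of the order (Sparc, Lamc1, Nid1, Col4a2, Col4a1, Lamb1, Lama1) lay outside the library ranges except that from Col4a2 to Col4a1. On D2 in TET_WT only Lamb1 and Lama1 were separate from each other, while Sparc and Lamc1, Lamc1 and Col4a1, Col4a1 and Nid1, Nid1 and Col4a2, and Col4a2 and Lamb1 overlapped.

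**Figure D2:**
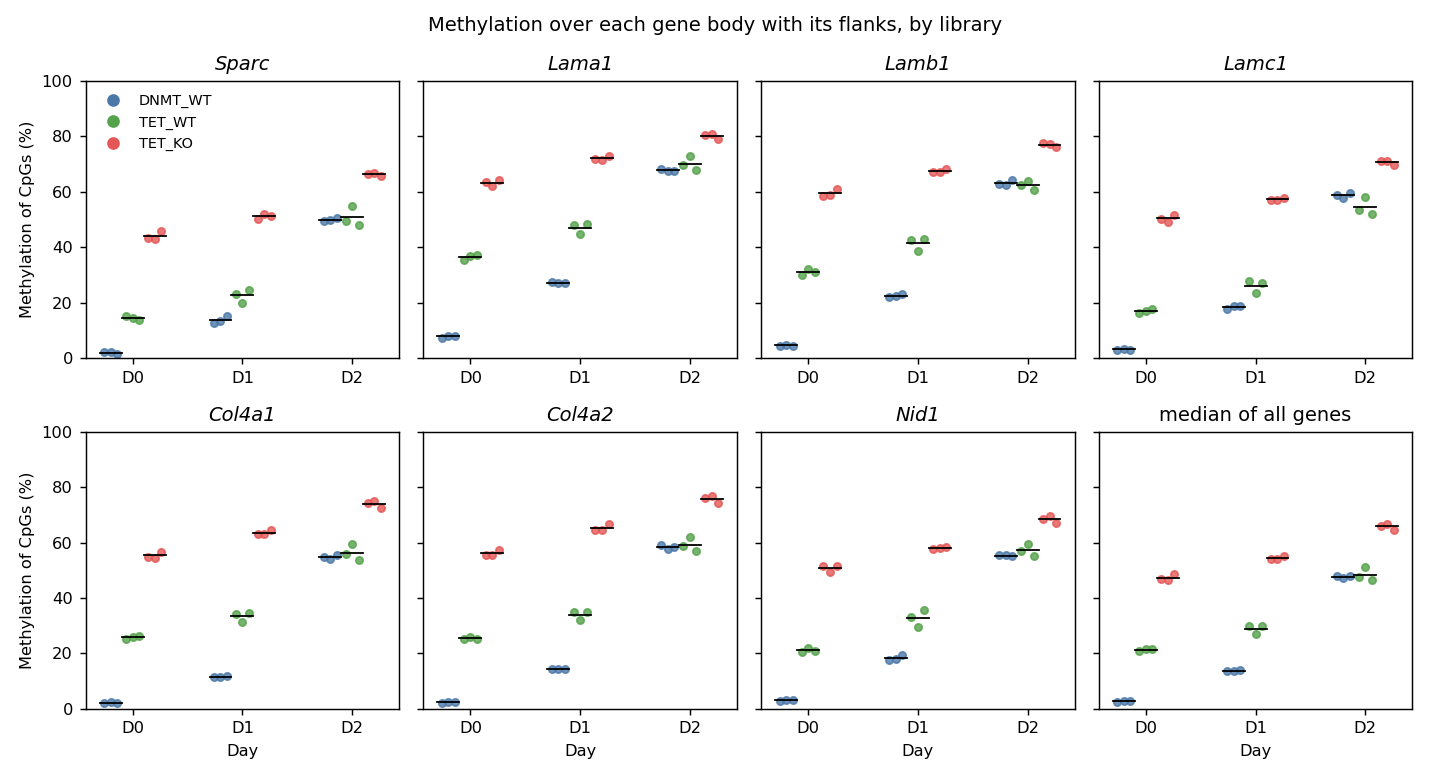
Methylation (y axis, percent of CpGs) of each gene by day (x axis) in each library (points) with group means (lines) for DNMT_WT, TET_WT and TET_KO, and the median of all protein-coding genes in the last panel. On D0 the lines are ordered DNMT_WT, TET_WT, TET_KO in every panel, and on D2 the means of the wild-type lines lie side by side, from 49.9% to 70.2% over the 7 genes, while TET_KO stays above them.

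From D0 to D1 in TET_WT, methylation of the genes began to rise. Nid1 rose by 11.8 ± 1.16 points (SE, n = 3 against 3; adjusted p = 3.39e-09), Lama1 by 10.7 ± 1.12 and Lamb1 by 10.4 ± 1.07. The remaining 4 passed the adjusted p but not 10 points: Lamc1 differed by 9.06, Col4a2 by 8.54, Sparc by 8.06 and Col4a1 by 7.59 points. Thus 3 of 7 genes were called, where 10.9% of all genes were, and 99 of 205 windows, where 27.6% of all windows were. A call here means an adjusted p under 0.05 in a limma fit over all windows or genes together with a difference of at least 10 points. No window of the 7 genes fell, as 0.00675% of all windows did. Relative to the library medians, which rose by 8.46 points, limma called none of the 205 in either direction (0.296% and 0.220% of all windows), and 66 had an unadjusted p under 0.05. Replicate 2 of TET_WT on D1 was the lowest for each of the 7 genes, and without it the difference of Lamc1 became 10.3 points. Leaving out 1 replicate at a time, the windows called ranged from 81 to 125 and the genes from 2 to 4. Without replicate 2 of TET_WT on both D1 and D2, 125 windows were called. Lamb1 was at 9.85, 9.82 and 9.61 points without replicate 1 of D0, replicate 1 of D1 or replicate 3 of D1, and was then no longer called.

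From D1 to D2 in TET_WT all 7 genes rose, as 94.2% of all genes did, and 196 of 205 windows, where the background was 88.0%. None fell, as 0.00225% of all windows did. The largest rises were those of Lamc1, by 28.4 ± 1.18 points (adjusted p = 3.85e-18), and Sparc, by 28.2 ± 1.29 (adjusted p = 9.62e-18), at the percentiles 99.5 and 99.4 of all genes. Lamb1 rose least, by 20.96 ± 1.07. Lama1 rose by 23.1, Col4a1 by 22.9, Nid1 by 24.3 and Col4a2 by 25.2 points. The median over the 7 genes was 24.3 points, against 18.9 for all genes. The 9 windows not called were the 8 under 1 kb and a Lamc1 window of 1655 bp next to its shortest one.

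DNMT_WT began lower and gained more. From D0 to D1 it rose in 6 of 7 genes (57.2% of all genes) and 159 of 205 windows (49.0% of all windows), and none of the windows fell (0.00135% of all). Lama1 rose by 19.3 ± 1.12 points (adjusted p = 2.43e-14), at percentile 99.1 of all genes, and Lamb1 by 17.9 ± 1.07, at percentile 97.1. Lamc1 rose by 15.4, Nid1 by 15.2, Col4a2 by 12.1 and Sparc by 11.8 points, and Col4a1 differed by 9.41 ± 1.09, short of 10 points. Taken relative to medians that rose by 10.3 points, the split was 43 higher and 6 lower (9.03% and 2.99% of all windows). On the next day all 7 genes rose (99.5% of all genes), and 196 windows (94.9%), with none lower (0.000900% of all). The order then turned: Col4a2 rose most, by 43.99 ± 1.06, Col4a1 next, by 43.2 ± 1.09, and Sparc least, by 36.1 ± 1.29.

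TET_KO began higher. From D0 to D1 none of the 7 genes reached 10 points in the limma fit (1.51% of all genes did), although all 7 passed the adjusted p and so the unadjusted one, with differences from 6.93 points in Sparc to 9.15 in Col4a2. At the scale of windows, 58 of 205 rose (20.1% of all windows) and none fell (0.00225% of all). Relative to the medians, with a rise of 8.43 points, limma called none (0.0160% and 0.216% of all windows), and 37 had an unadjusted p under 0.05. From D1 to D2, 5 genes rose (54.4% of all genes) and 110 windows (65.8% of all windows), and no window fell (0.00428% of all). Relative to medians that rose by 12.8, 6 higher and 9 lower were called (0.743% and 4.89% of all windows). Sparc rose most, by 15.2 ± 1.29 points (adjusted p = 3.04e-11), then Lamc1 by 13.3 ± 1.18, and Col4a2, Col4a1 and Nid1 by 10.5, 10.4 and 10.4. Lamb1 differed by 9.56 ± 1.07 and Lama1 by 8.03 ± 1.12. Without replicate 2 of TET_KO on D2, Col4a1, Col4a2 and Nid1 fell short of 10 points, at 9.87, 9.98 and 9.79, and 2 genes were called. Lamb1 passed 10 points, at 10.02 and 10.03, without replicate 3 of TET_KO on D1 or on D2, and 10.2 when windows were weighted by the bases they share with the gene.

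In the naive state, loss of the Tet enzymes went with higher methylation of every one of the 7 genes. TET_KO exceeded TET_WT on D0 by 33.4 ± 1.18 points in Lamc1 (adjusted p = 1.16e-20), 30.7 in Col4a2, 29.7 in Nid1, 29.6 in Sparc, 29.5 in Col4a1, 28.5 in Lamb1 and 26.99 ± 1.12 in Lama1. The lowest TET_KO library lay above the highest TET_WT library for each gene. Nearly all genes were called (98.9%), as were 193 of 205 windows (92.9% of all windows), and none was called lower (0.0223% of all). All 7 differences lay above the median of all genes, 25.1 points. As a multiple of the starting level the order was another, since Sparc went from 14.6% to 44.2% and Lama1 from 36.4% to 63.4%.

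On D1 the same comparison gave 31.3 points in Col4a2, 31.3 in Lamc1, 30.1 in Col4a1, 28.5 in Sparc, 26.1 in Lamb1, 25.2 in Nid1 and 24.98 in Lama1. All 7 genes were higher (98.7% of all genes), and 194 windows (92.6%), with no window lower (0.0248% of all). Relative to medians that differed by 30.3, the windows split into 15 higher and 34 lower (2.76% and 19.8% of all windows). By D2 the lines had come closer. TET_KO was then higher in 6 genes (91.2% of all genes) and 165 windows (84.3%). None of the genes or windows was called lower, as 0.0140% of all genes and 0.0542% of all windows were. Col4a1 led with 17.5 ± 1.09 points (adjusted p = 7.80e-15), followed by Col4a2 with 16.5, Lamc1 with 16.2, Sparc with 15.4 and Lamb1 with 14.7.

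The smallest D2 differences were those of Nid1, 11.2 ± 1.16 points (adjusted p = 3.30e-10), and Lama1, 9.90 ± 1.12 (adjusted p = 1.92e-09), at the percentiles 15.9 and 8.31 of all genes. Lama1 fell short of 10 points, and it reached 11.3 without replicate 2 of TET_WT on D2 and 10.5 without replicate 3 of TET_KO. With windows of the gene body alone it was 10.3, and with windows weighted by the bases they share with the gene 10.2, and it was then called. Beside the 84.3% of all windows that were higher in TET_KO on D2 stood 22 of the 40 Lama1 windows, 11 of 17 in Nid1, 28 of 37 in Lamc1, 7 of 9 in Sparc, 21 of 24 in Lamb1, 36 of 38 in Col4a1 and 44 of 46 in Col4a2. At the high-coordinate end of Nid1, windows singled out after their values were seen showed no excess: chr13:13504188-13509163 had 78.1% in TET_WT and 75.9% in TET_KO, and chr13:13509164-13515266 had 71.4% and 68.98%.

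The gain from D0 to D2 was smaller without Tet in all 7 genes, and this difference was tested directly. The gain of TET_KO minus that of TET_WT was -18.5 ± 1.64 points in Nid1 (adjusted p = 6.48e-10), -17.2 ± 1.67 in Lamc1 and -17.1 ± 1.59 in Lama1. These lay at the percentiles 1.07, 2.53 and 2.69 of all genes. Sparc followed with -14.2, Col4a2 with -14.1, Lamb1 with -13.8 and Col4a1 with -12.02. All 7 genes were called lower, where 45.4% of all genes were, and 162 of 205 windows, where 44.2% of all windows were. A larger gain in TET_KO was called in none of them, against 1.01% of all genes and 2.50% of all windows. The median over the 7 genes was -14.2 points, against -9.41 for all genes. Relative to the library medians, whose own difference of gains was -9.64 points, the split was 7 higher and 59 lower (17.9% and 8.45% of all windows), and the 7 gene differences, -8.89 in Nid1 to -2.38 in Col4a1, were all short of 10 points. Without replicate 2 of TET_WT on D1 and D2, 7 genes and 152 windows were called. The knockout starts nearer to the top of the scale, and the part of that in the smaller gain was not tested.

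The naive knockout and the D2 wild type were also set side by side, a comparison added with earlier results known. Over all genes the median of TET_KO on D0 minus TET_WT on D2 was -1.61 points, and over the 7 genes it was -4.11. Lama1 differed by -6.87 ± 1.12 (adjusted p = 1.60e-05), Sparc by -6.69 ± 1.29, Nid1 by -6.43 ± 1.16, Lamc1 by -4.11 ± 1.18, Col4a2 by -3.07 ± 1.06, Lamb1 by -2.86 ± 1.07 and Col4a1 by -1.02 ± 1.09 (adjusted p = 0.438). In the limma fit none reached 10 points (1.28% of all genes did so upward and 0.698% downward), and 6 of 7, all but Col4a1, passed both the adjusted and the unadjusted p at any size. Without replicate 2 of TET_WT on D2, Col4a1 stood at 0.522. In windows, 3 were higher and 28 lower, against 6.02% and 7.08% of all windows, and relative to the medians 3 higher and 25 lower, against 6.84% and 6.05% of all windows.

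**Figure D3:**
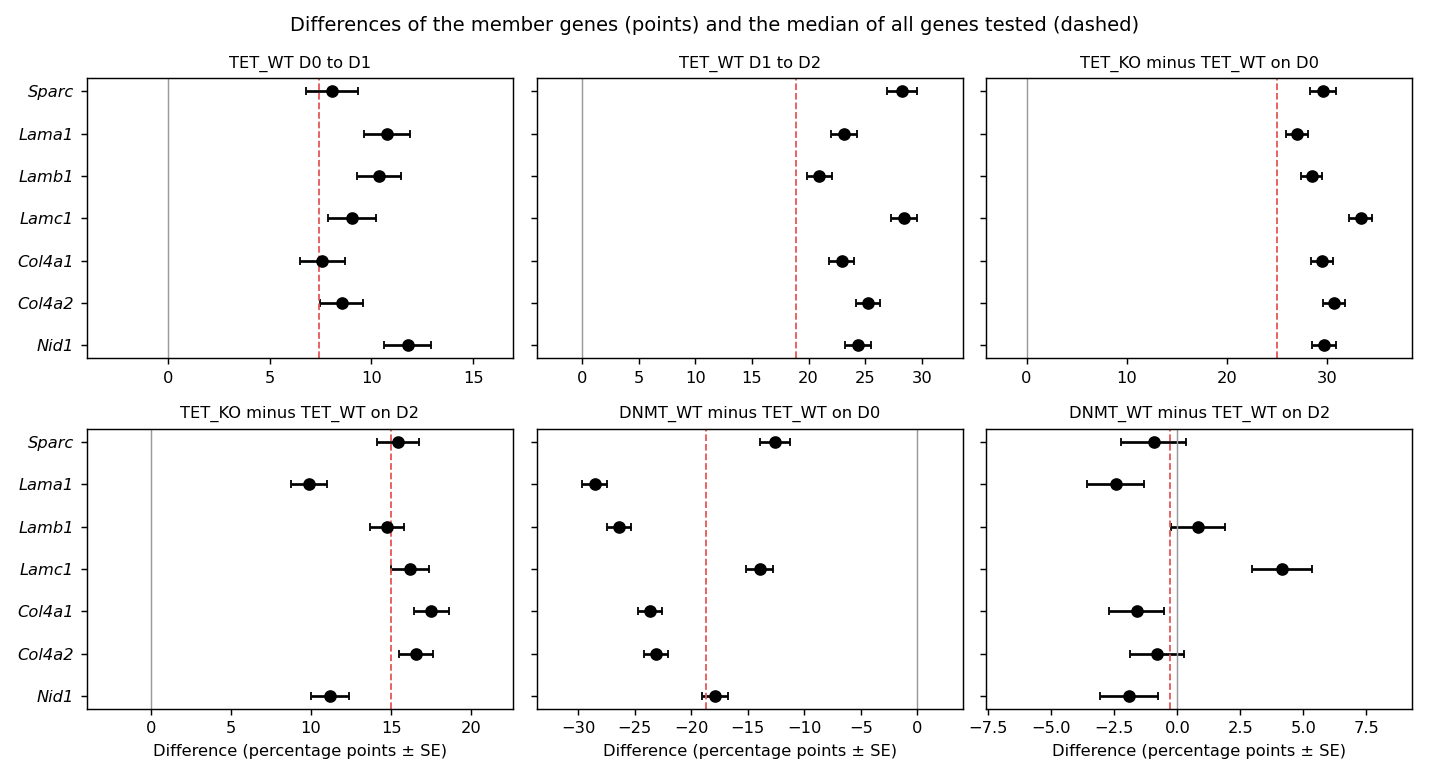
Difference of each gene in percentage points (x axis, points with bars of 1 SE from limma) in 6 comparisons, with a grey line at 0 and a dashed line at the median of all genes tested. From D1 to D2 in TET_WT every gene lies to the right of the dashed line, and for TET_KO minus TET_WT on D2 Lama1 and Nid1 lie well to its left.

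The wild-type lines differed in the naive state, and by D2 none of the 7 genes was called between them. On D0 DNMT_WT was lower in all 7 genes (88.8% of all genes) and in 169 windows (88.9% of all windows) and higher in none (0.000900% of all). DNMT_WT minus TET_WT was -28.6 ± 1.12 points in Lama1 (adjusted p = 2.48e-19), -26.4 in Lamb1 and -12.6 ± 1.29 in Sparc. The library medians differed by -22.9, and relative to them 43 higher and 38 lower were called (15.8% and 13.5% of all windows), with Sparc as a gene then higher by 10.3. Sparc stood at 14.6% in TET_WT on D0 and could not fall by 22.9 points, so the sign of its relative value was fixed by its level. The same held for Lamc1, at 17.1%, and Nid1, at 21.1%. It also held for the 31 of 205 windows under 10% in TET_WT on D0, so the 43 cannot be read apart from this limit. On D1 DNMT_WT was lower in 5 genes (76.3% of all genes) and 154 windows (85.6%). No gene or window was called higher, as 0.00465% of all genes and 0.0126% of all windows were. Sparc and Lamc1 fell short of 10 points there, with -8.84 ± 1.29 and -7.62 ± 1.18, and Col4a1 had the largest difference, -21.8 ± 1.09. Without replicate 2 of TET_WT on D1, Sparc reached -10.1. Relative to medians that differed by -21.05, 53 windows were higher and 9 lower (16.0% and 7.95% of all windows), 25 of the higher ones in Lamc1. The 18 windows under 10% in TET_WT on D1, 8 of them in Lamc1, could not fall by 21.05 points. Their positive sign was thus fixed by their level, and the 53 cannot be read apart from this limit. Sparc stood at 22.6% and Lamc1 at 26.1% in TET_WT on D1, little above the size of that shift. As genes, Sparc and Lamc1, both lower in percentages, were then higher by 12.2 and 13.4 points relative to the medians. The other 5, from -0.780 in Col4a1 to 6.58 in Nid1, were not called. On D2 no gene of the 7 reached 10 points in either direction (0.251% of all genes were higher and 2.91% lower), and differences ran from -2.45 in Lama1 to 4.15 in Lamc1. Lamc1 alone passed the adjusted p at any size (adjusted p = 0.00531), and 2 of 7 had an unadjusted p under 0.05.

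Single windows still differed between the wild types on D2, 4 higher and 6 lower in DNMT_WT, against 1.78% and 10.5% of all windows. Relative to medians that differed by -2.97, 18 higher and 2 lower were called (4.14% and 4.76% of all windows). The 10 windows that differed on the percentages as deposited were singled out after their values were seen and lay in Lama1, Lamc1 and Nid1. In Lama1 the adjoining windows chr17:67767998-67772369 and chr17:67772548-67775800 differed by -16.9 ± 2.43 and -19.3 ± 2.42 points. Their TET_WT levels were 73.8% and 77.6%, and their DNMT_WT levels 56.9% and 58.3%. In Lamc1, chr1:153265244-153268619 was higher by 13.03 ± 2.10 points, with 60.8% in TET_WT and 73.8% in DNMT_WT. The Nid1 windows without an excess in TET_KO on D2 were among the lower ones, with differences of -10.9 ± 1.91 and -10.6 ± 1.91 points. Without replicate 2 of TET_WT on D2, 18 windows differed.

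The gain from D0 to D2 was larger in DNMT_WT than in TET_WT for all 7 genes (89.7% of all genes) and 180 windows (82.7% of all windows), and smaller in none of them (0.0196% of all windows). Lamb1 had the largest difference of gains, 27.2 ± 1.52 points (adjusted p = 5.44e-15), then Lama1 with 26.1, Col4a2 with 22.3, Col4a1 with 22.04, Lamc1 with 18.1, Nid1 with 16.02 and Sparc with 11.6 ± 1.83. Relative to the library medians, which gained 19.9 points more in DNMT_WT, the split was 41 higher and 25 lower (12.5% and 16.8% of all windows), no gene reached 10 points, and the sign turned in Lamc1, Nid1 and Sparc, with -1.83, -3.90 and -8.28. The comparisons against TET_WT share its libraries and are not independent of each other.

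The values relative to the library median given above were added after seeing the data. In 4 further comparisons they were as follows. The medians rose by 22.4 points from D1 to D2 in TET_WT. Relative to this, 27 windows of the 7 genes were higher and 9 lower, against 2.17% and 17.8% of all windows, and 14 of the 27 lay in Lamc1. By gene, the 9 lower ones matched the 9 windows not called in percentages, which stayed near 0% while the medians rose. In DNMT_WT from D1 to D2 the medians rose by 40.5 points, and 25 windows were higher and 18 lower (2.62% and 25.4% of all), with 12 and 10 of the higher windows in Col4a1 and Col4a2. For TET_KO minus TET_WT on D0, where the medians differed by 30.4, 22 were higher and 28 lower (3.69% and 19.2%), and Lamc1 again held 14 of the 22. On D2, with a difference of 20.7, 4 were higher and 46 lower (8.47% and 18.0%), and 20 of the 46 lay in Lama1. As genes all 7 then lay below the median shift, from -3.24 in Col4a1 to -10.8 in Lama1, and Lama1 alone was called lower. The median difference of all genes, 15.0 points, also lay below that shift of the window medians, and 4 of the 7 genes exceeded the gene median. For calls of genes relative to the medians, here and above, no share of all genes was computed. Centred on the library mean in place of the median, the counts were 62 for TET_WT and 93 for DNMT_WT from D1 to D2, higher and lower together. The share of all windows was not computed for this centring.

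Within the genes methylation was not even. A limit of 10% in naive TET_WT was chosen after the values were seen. Among these genes, stretches under it were most common in Sparc, with 4 of 9 windows, and Lamc1, with 15 of 37. In Lama1 3 of 40 were under it, in Lamb1 2 of 24, in Col4a1 4 of 38, in Col4a2 3 of 46 and in Nid1 3 of 17. The share of all windows under this limit was not computed, so whether these counts are unusual cannot be said. The Sparc stretch of 4 windows covered the start (chr11:55411644-55426622) and had a mean of 6.08% on D0 and 38.8% on D2 in TET_WT, and of 31.1% and 53.9% in TET_KO.

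Lamc1 held the longest low stretch inside a gene body, 4 windows at chr1:153268620-153282839. Its mean in TET_WT was 4.67% on D0, 9.36% on D1 and 44.7% on D2. In TET_KO it was 36.6% on D0 and 67.9% on D2. Near it lay the Lamc1 window with the largest difference between the naive lines (chr1:153262427-153265243), at 16.9%, 13.1% and 14.8% in TET_WT and 72.4%, 71.8% and 66.8% in TET_KO. That difference was 55.4 ± 2.74 points (adjusted p = 2.50e-16), and it was the largest among the 205 windows. Of the sides of Lamc1, parted at its middle, the high-coordinate one was lower, 10.3% against 23.6% in TET_WT on D0 and 61.5% against 79.5% in TET_KO on D2.

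At the high-coordinate end of Lamc1, chr1:153326740-153330755 had a larger mean gain in the knockout than in its parent. That held for 4 of the 197 windows of at least 1 kb, and the share over all such windows was not computed. The Lamc1 window went from 2.59% to 36.3% in TET_WT and from 15.3% to 56.98% in TET_KO, a difference of gains of 7.96 ± 2.70 points (adjusted p = 0.0124). This window too was singled out after its values were seen, and its difference of gains fell short of 10 points. Relative to the library medians the difference was 17.6 points, and it was then called, as were the other 3 of the 4. In percentages those 3 differed by only 0.490, 0.866 and 1.09 points (limma, adjusted p from 0.242 to 0.865). Their calls came from the median shift of -9.64, and 17.9% of all windows were called higher in this way.

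Col4a1 held a low window between more methylated neighbours, chr8:11276708-11279675, which overlaps the non-coding gene Gm32709. It had 8.38% on D0 and 24.3% on D2 in TET_WT, 21.6% and 38.7% in TET_KO, and 29.7% in DNMT_WT on D2. The shared start of Col4a1 and Col4a2 lay in a low stretch of 3 windows (chr8:11310916-11313437) with a mean of 6.83% in TET_WT and 10.6% in TET_KO on D2. Outside the 2 short windows at its start, Lamb1 had none under 10% in naive TET_WT.

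The windows with the largest rise from D1 to D2 in TET_WT differed in place between the genes. In Lama1 it was the flank before its low-coordinate end (chr17:67690620-67695639), from 19.6% to 61.8%, the largest of the 205. In Lamc1 it was chr1:153265244-153268619, from 20.03% to 60.8%, and in Sparc the innermost window of its low stretch (chr11:55411644-55416436), from 18.4% to 56.6%. In Nid1 1 window, chr13:13478271-13481939, had both the largest rise and the largest difference between the naive lines, with 14.8%, 28.1% and 65.8% in TET_WT and 61.2% in naive TET_KO. Of the 205 windows the highest mean over all libraries was in Lama1 (chr17:67740081-67744371), at 63.9% in naive TET_WT and 90.3% in TET_KO on D2.

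**Figure D4:**
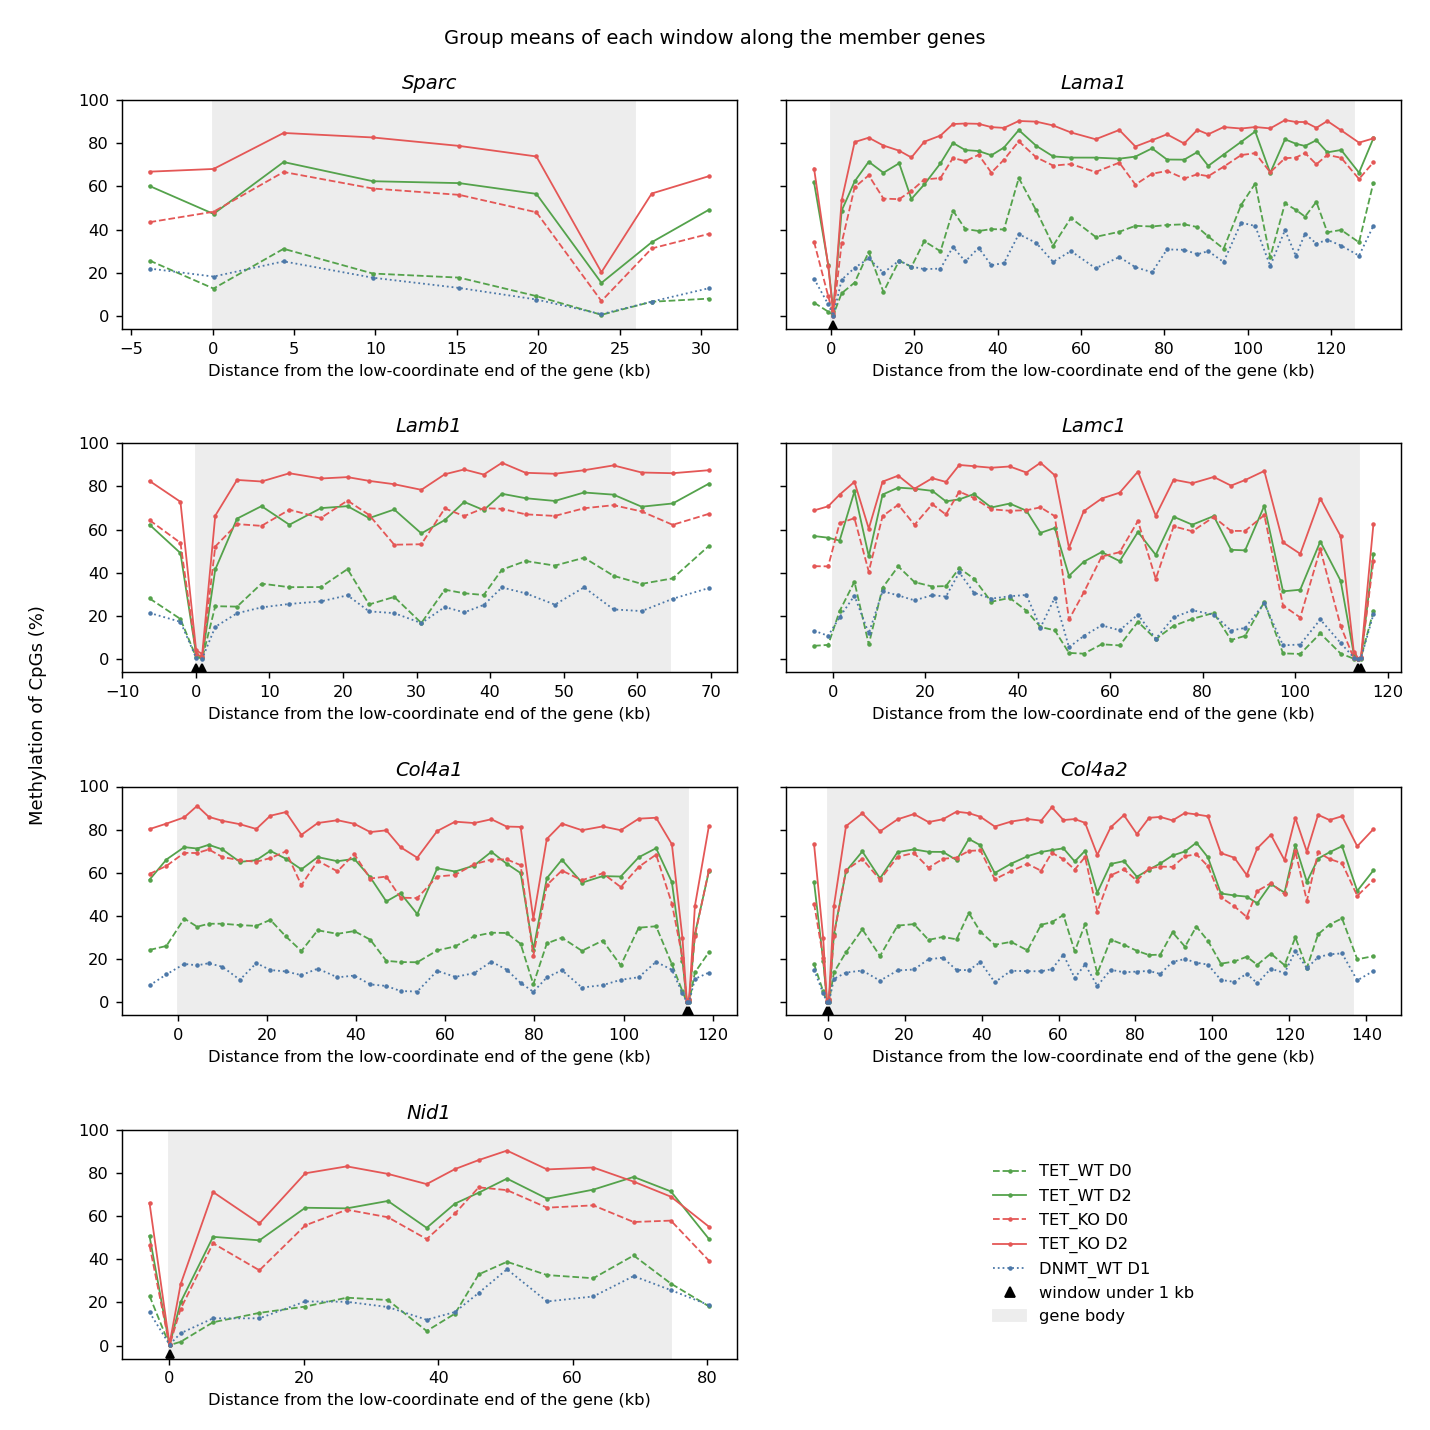
Group mean of every window (y axis, percent of CpGs) against the distance of its centre from the low-coordinate end of the gene (x axis, kb) for TET_WT and TET_KO on D0 and D2 and DNMT_WT on D1, with the gene body shaded and triangles under windows shorter than 1 kb. All lines dip to near 0 at the CpG-rich ends of 6 genes, Sparc dips without a short window, and Lamc1 has a broad low stretch inside its body.

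The other genes of the pathway were counted from lists drawn up with earlier results of these data known. Of 30 other basement membrane genes, 30 were higher in TET_KO on D0 and 30 rose from D1 to D2 in TET_WT, with medians of 27.8 and 22.2 points. Over all genes these shares were 98.9% and 94.2% and the medians 25.1 and 18.9. Fn1, which encodes fibronectin, had the largest values in both, 39.2 and 28.04. Agrn, which encodes agrin, was least different between the naive lines, with 18.8, and Col4a5, a further collagen IV chain, rose least, by 10.9.

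Of 15 matrix receptors, 15 were higher in naive TET_KO and 15 rose from D1 to D2 in TET_WT, again beside 98.9% and 94.2% of all genes, with medians of 25.7 and 20.95 points. Itga6, a chain of laminin-binding integrins, was higher in naive TET_KO by 30.7 and Itgb1, their common beta chain, by 17.8. From D1 to D2 in TET_WT the laminin receptor Bcam rose by 24.3 and the fibronectin-binding integrin chain Itga5 by 16.4. Of 23 genes that process collagen, 23 were higher and 23 rose, with medians of 26.2 and 20.1, against 25.1 and 18.9 for all genes. With nearly all genes called in both comparisons, these counts are near the background. The crosslinking enzyme Loxl2 was among the largest and its relative Lox the smallest in both, with 34.02 and 16.7 points between the naive lines and 26.4 and 11.9 from D1 to D2.

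Other primitive endoderm genes were higher in naive TET_KO in 25 of 25 cases, with a median of 24.9 points, and rose from D1 to D2 in TET_WT in 21 of 25, with a median of 19.1. The first count is near the background of 98.9% and the second below that of 94.2%, and the medians of all genes were 25.1 and 18.9. Srgn, a proteoglycan core protein, and Ttr, the transport protein transthyretin, were at the top of both, with 36.04 and 35.3 points between the naive lines. The transcription factor Sox17 was higher by 11.1, and the factor Foxa2 differed by 5.75 points from D1 to D2, short of 10. In the test of gains, 8 of these 25 genes gained less in TET_KO, beside 22 of the 30 other basement membrane genes, 8 of the 15 receptors and 18 of the 23 processing genes, where 45.4% of all genes did.

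Genes with the most similar levels were found by the root mean square difference over the 9 group means, among genes outside the windows of each member. Lamb1 had the closest, Golga4 at 0.366 and Zfp827 at 0.461 points. The closest to Sparc was Aff1, at 0.913, to Lama1 Trrap, at 0.805, to Lamc1 Lpcat3, at 0.880, and to Col4a2 Dysf, at 0.715. For Col4a1 the closest were Unc79, at 0.659, and Col6a3, another collagen chain, at 0.788, and for Nid1 Zcchc17 and Tead4, at 0.746 and 0.749. Between the 7 genes themselves the distance ran from 2.02 points for Col4a1 and Col4a2 to 18.2 for Sparc and Lama1.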

How the data were processed

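Per the labels, DNA was sonicated, ligated to methylated adapters, bisulfite converted and amplified. Per the submitters' processing notes, the tools were Trim Galore 0.6.6, cutadapt 2.3 and Bismark 0.23.0 with GRCm38. The authors deposited the methylation of each window as a percent from 0 to 100 for every library. How windows were filled, what is counted to reach 100, and any coverage filter are not given in the sources used here, and without counts the depth is unknown. Of 453245 windows, 453239 were nuclear and 444250 had a value in all 27 libraries.

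Gene coordinates came from RefSeq (GRCm38.p6), which gives bounds without exons. Windows that hold a member can hold a neighbour: Dld, Gm32899 and Gm24613 beside Lamb1, Gm8818 beside Lamc1, Gm15418 and Gm32709 beside Col4a1, Gm46030 and Rab20 beside Col4a2, and Gm7426 beside Nid1. Percentages as deposited were fitted with limma 3.58.1 (lmFit, eBayes with trend, R 4.3.3), over all windows and, separately, over the means of 21488 genes, with a mean for each of 9 groups and 18 residual degrees of freedom. A call is a Benjamini-Hochberg adjusted p under 0.05 with a difference of at least 10 points. The fit was tested on simulated data. Named windows were the start, the lowest, the highest and those with the largest difference in TET_KO minus TET_WT on D0 and in D1 to D2 of TET_WT. From each list the 2 largest and the 2 smallest differences could be named, and for each member the 2 most similar genes. Members and lists were chosen with earlier results of these data known. Alternatives were another size threshold, gene bodies alone, weighting by shared bases, p-values from log2 odds, fewer libraries in the fit, a window filter, a replicate block, and leaving out each replicate. Same-numbered libraries had correlations of -0.0549 to 0.0570 over 108 pairs, so numbers were not used as pairs. Other tables and figures used Python 3.11.15, pandas 2.3.3 and matplotlib 3.10.9.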

Additional observations from a re-analysis of the deposited data

Results flagged for a closer look

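Differences between lines in the gain from D0 to D2 passed a test of the difference itself for all 7 genes in both comparisons. TET_KO against TET_WT gave -14.2 points in Sparc, -17.1 in Lama1, -13.8 in Lamb1, -17.2 in Lamc1, -12.02 in Col4a1, -14.1 in Col4a2 and -18.5 in Nid1. DNMT_WT against TET_WT gave 11.6 points in Sparc, 26.1 in Lama1, 27.2 in Lamb1, 18.1 in Lamc1, 22.04 in Col4a1, 22.3 in Col4a2 and 16.02 in Nid1. Such differences were common over all genes, of which 45.4% and 89.7% were called in the same directions. Relative to the library medians none of these gene differences reached 10 points.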

How the results depend on the processing

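Of 357 counts recomputed under an alternative, 337 stayed within 1.5 times the reported count. With a threshold of 20 points, the windows called were 0 for D0 to D1 in TET_WT and in TET_KO, 44 for D0 to D1 in DNMT_WT, 12 for D1 to D2 in TET_KO, 45 for TET_KO minus TET_WT on D2, 95 and 0 for DNMT_WT minus TET_WT on D1 and D2, and 58 for the difference of gains of TET_KO and TET_WT. The genes called were then 0 for D0 to D1 in TET_WT and in DNMT_WT, for D1 to D2 in TET_KO, for TET_KO minus TET_WT on D2 and for that difference of gains, and 4 and 1 for DNMT_WT minus TET_WT on D0 and D1. Centring on the library mean gave 62 windows for D1 to D2 in TET_WT, against 36, and 93 in DNMT_WT, against 43, with both directions counted together. The shares of all windows and genes were not computed under these alternatives, so the counts cannot be set beside a background.

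Leaving out 1 replicate at a time, windows for DNMT_WT minus TET_WT on D2 ranged from 11 to 18 and genes for D1 to D2 in TET_KO from 2 to 6. The count of 18 was also found without replicate 2 of TET_WT on both D1 and D2, an alternative chosen after seeing the data. DNMT_WT minus TET_WT on D2, where no gene but Lamc1 passed the adjusted p, ranged over these fits across 0, from -2.31 to 1.10 points in Sparc, -1.95 to 0.524 in Col4a2 and -0.0630 to 1.68 in Lamb1. TET_KO on D0 minus TET_WT on D2 ranged from -2.27 to 0.522 in Col4a1. The sign changed without replicate 2 of TET_WT on D2 in Sparc, Col4a2 and Col4a1 and without replicate 3 in Lamb1. Of 1302 single-gene values under alternatives, 1277 kept their direction and their side of the threshold. Those that changed sides of the threshold were between 9.61 and 11.3 points in size.

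A fit with the replicate number as a block gave 196 windows and 7 genes for D1 to D2 in TET_WT and changed no other call of a member gene. The depth is unknown, so percentages from few and from many reads look alike here.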
